A study of Mus musculus with 11 samples.

Results

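The genes described here move calcium ions into, out of and within cells, or open channels in response to calcium, and several of them set the rhythm of contraction in smooth muscle. They were chosen by name, as a list of 10 genes, and not by a cut on their values, but with earlier results of these data known. Of these, 9 had 26 probe sets on the array among 18194 genes with a probe set of their own, and Itpr1 was not analysed here. All samples were wild-type CD-1 mouse embryos of E15.5 (Theiler stage 23), with no treatment, and the tissue was taken from frozen sections with a laser microdissection system. The groups were ureteral smooth muscle (USM in the plots, 3 arrays), urothelium (URO, the epithelial lining of the ureter, 3 arrays), cortical collecting duct (CCD, 2 arrays) and early proximal tubule (EPT, 3 arrays). Every array carried RNA pooled from approximately 50 sections of 5 kidneys and amplified in 2 rounds. Whether pools shared kidneys or fetuses is not stated, so the p-values rest on how far these pools varied, and that spread may be technical. CD-1 is an outbred stock.

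Smooth muscle contracts when calcium enters through L-type channels in the cell membrane and when it leaves the sarcoplasmic reticulum through ryanodine and inositol trisphosphate receptors. Calcium-activated chloride channels depolarise the membrane further, large-conductance (BK) potassium channels bring it back, and the SERCA pump returns calcium to the store. In the ureter these steps carry urine towards the bladder as waves of contraction, which start from pacemaker activity near the kidney. Pacemaker cells were not captured as a compartment of their own.

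Levels are given as log2(signal + 55), the deposited signal with 55 added to damp the noise of dim probe sets. A difference of 1 on that scale is a doubling for bright probe sets and more than that for dim ones. A probe set was tested if it lay above the median of its own array in at least 2 arrays, which 21 of the 26 did. It was called if its adjusted p was under 0.05 and its log2 fold change at least 1 in size. Array medians lay between 8.24 and 8.83 on this scale. Levels of different probe sets cannot be set against each other, because probes differ in brightness. In bulk tissue, fewer cells of a type and less RNA per cell cannot be told apart.

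The captured tissues were checked against marker lists. Of 10 smooth muscle markers, 8 were called higher in ureteral smooth muscle than in the mean of the other compartments, among them Acta2 and Myh11, which encode smooth muscle actin and myosin. Over all genes read from 1 probe set each, 4.75% were called higher and 7.47% lower. Of 8 stroma and pericyte markers, 5 were also called higher in muscle, and so was the troponin gene Tnnt2, alone of 5 striated muscle markers tested. In their own compartments against the mean of the others, 5 of 7 urothelial and 8 of 8 proximal tubule markers tested were called higher, but only 2 of 8 collecting duct markers (Scnn1g and Wnt9b). Aqp2, the water channel of the collecting duct, was not among them, and Scnn1g averaged 12.63 in collecting duct and 12.59 in urothelium. No marker of neurons (5 tested), endothelium (5), leukocytes (3) or erythroid cells (4) was called in muscle. Arrays of 1 compartment correlated at 0.857 to 0.901 and arrays of different compartments at 0.709 to 0.893. The ratio of 3' to 5' Gapdh control signal, which grows as RNA is shortened, ran from 6.79 to 55.3. The same ratio for actin ran from 5.07 to 13.5. A date-like part of the sample names splits the arrays into 4 label batches whose meaning is not stated. Urothelium shares no label batch with collecting duct or proximal tubule.

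Of the 21 tested probe sets of the calcium and pacemaker genes, 7 were called higher in smooth muscle than in the mean of the other 3 compartments and 0 lower, where 3.95% of all 29565 probe sets were called higher and 5.57% lower. The 7 belonged to 4 genes. They were both subunits of the BK channel (Kcnma1 and Kcnmb1), the chloride channel Ano1 and the L-type calcium channel Cacna1c. The median log2 fold change over the 21 was 0.75, and over all probe sets tested -0.05. For 5 of the 7, every muscle array lay above every array of the other compartments, which held for 4.23% of all probe sets. Against single compartments, muscle was called higher for 4 probe sets over urothelium (1.79% of all probe sets), 6 over collecting duct (1.88%) and 6 over proximal tubule (5.64%). It was called lower for 2 probe sets, both against proximal tubule (8.34%). With label batch as a fixed block, 1 of the 4 calls over urothelium, 0 of the 6 over collecting duct, 2 of the 6 over proximal tubule and 0 of the 2 lower calls held. With no filter on dim probe sets, 3 were called over urothelium and 4 over collecting duct. Of all 45037 probe sets in that fit, 1161 and 1179 were called either way in these comparisons. Of the 7, 3 (Kcnma1 1424848_at, Kcnmb1 1421400_at and Cacna1c 1435730_at) had passed the filter through their muscle arrays alone. Kcnma1 1425987_a_at and Kcnmb1 1421401_at lay above the median in 3 muscle arrays and 1 urothelial array, so they too needed muscle to pass. The counts and median over tested probe sets therefore favour muscle. With no filter, 7 of all 26 were called higher in muscle against the mean of the others. Of all 45037 probe sets in that fit, 2533 were called either way in that comparison.

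**Figure D1:**
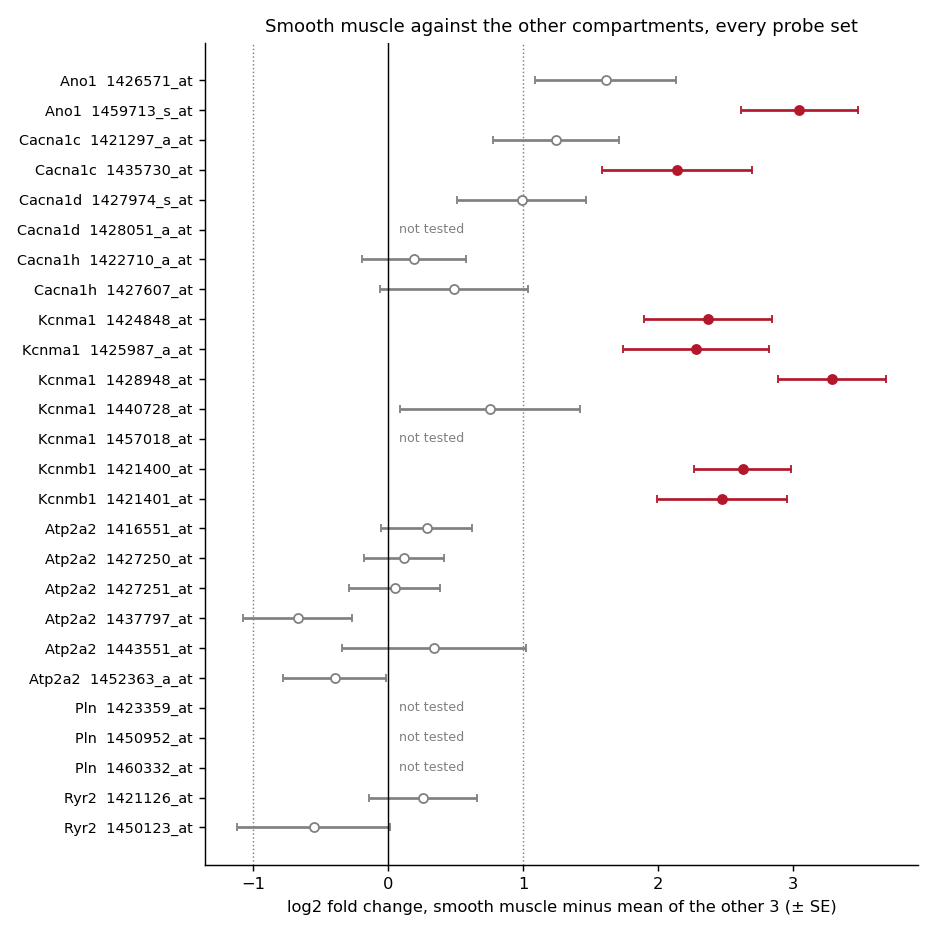
Log2 fold change (x axis, with its SE) of ureteral smooth muscle minus the mean of the other 3 compartments for all 26 probe sets of the 9 genes (y axis). Filled red points are the 7 called probe sets, open points the 14 that were tested and not called, and the 5 dim probe sets are marked as not tested.

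Kcnma1 (chromosome 14, 23292288 to 24005110, GRCm38.p6) encodes the pore-forming subunit of the BK potassium channel, which opens on depolarisation and on a rise of calcium. Its brightest probe set, 1428948_at, read 11.56, 11.65 and 11.27 in smooth muscle, 10.04, 9.15 and 8.12 in urothelium, 7.78 and 8.35 in collecting duct, and 7.38, 7.43 and 7.53 in proximal tubule. All 3 muscle arrays lay above all others, and urothelium came next with a wide spread. Muscle exceeded the mean of the other compartments by 3.29 ± 0.40 (log2, SE, adjusted p = 0.000209). It exceeded urothelium by 2.39 ± 0.48 (adjusted p = 0.0122). The steps below it were not called, at 1.04 ± 0.54 for urothelium over collecting duct (adjusted p = 0.53) and -0.62 ± 0.54 for proximal tubule over collecting duct (adjusted p = 0.709).

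The other probe sets of Kcnma1 differed in strength. Probe set 1424848_at averaged 9.51 ± 0.85 in muscle (SD, n = 3), 7.0 ± 0.18 in urothelium (n = 3), 6.98 ± 1.13 in collecting duct (n = 2) and 7.45 ± 0.76 in proximal tubule (n = 3). It was called higher in muscle by 2.37 ± 0.47 (adjusted p = 0.00622), and so was 1425987_a_at by 2.28 ± 0.54 (adjusted p = 0.017). Without muscle replicate 2 or 3 the call of Kcnma1 1425987_a_at was lost, with adjusted p = 0.0818 and 0.0513. Probe set 1440728_at read 8.45, 11.07 and 7.81 in muscle, against 7.79, 10.28 and 9.35 in urothelium. Its muscle arrays straddled the other groups, and it was not called (0.75 ± 0.66, adjusted p = 0.578). The fifth probe set, 1457018_at, lay above the array median in 1 array and was not tested.

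Kcnmb1 (chromosome 11, 33962955 to 33973641) encodes the beta 1 subunit, which joins the BK pore in smooth muscle and raises its sensitivity to calcium. Probe set 1421400_at read 9.17, 9.58 and 9.06 in smooth muscle, 6.12, 6.34 and 6.44 in urothelium, 7.87 and 6.69 in collecting duct, and 6.51, 5.90 and 6.67 in proximal tubule. Only the muscle arrays lay above their array medians. Muscle exceeded the mean of the others by 2.62 ± 0.36 (adjusted p = 0.000486) and urothelium by 2.97 ± 0.43 (adjusted p = 0.0017). The second probe set, 1421401_at, read 8.96, 9.25 and 9.22 in muscle, against 7.25, 6.15 and 8.56 in urothelium. It was called against the mean of the others (2.47 ± 0.48, adjusted p = 0.00526) and not against urothelium (1.82 ± 0.58, adjusted p = 0.107). Urothelium replicate 3 came closest to the muscle arrays on this probe set.

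Within label batches, the probe sets of the BK genes called in muscle were higher in muscle in every comparison available, and the uncalled ones were not. Muscle minus urothelium was -2.00 for Kcnma1 1440728_at in label batch 1 and -0.56 for Kcnma1 1457018_at in label batch 2. For Kcnma1 1428948_at, muscle exceeded urothelium by 2.63 in label batch 1 and 1.51 in label batch 2, collecting duct by 3.86 and proximal tubule by 4.27 in label batch 4. For Kcnmb1 1421400_at these differences were 2.67, 3.05, 1.71 and 3.07. With label batch as a fixed block, Kcnma1 1428948_at stayed called at 3.43 ± 0.48 (adjusted p = 0.00506) and Kcnmb1 1421400_at at 2.54 ± 0.45 (adjusted p = 0.0139). Kcnma1 1425987_a_at (adjusted p = 0.0678) and Kcnmb1 1421401_at (adjusted p = 0.0545) lost their calls in that fit. Against urothelium alone, Kcnma1 1428948_at also lost its call (2.15 ± 0.51, adjusted p = 0.0576). The 3' to 5' Gapdh ratio was 6.79, 13.5 and 13.7 in muscle arrays, against 16.7, 55.3 and 29.7 in urothelial arrays, with no overlap. The 3' to 5' actin ratio was 7.71, 8.16 and 5.07 in muscle arrays and 6.66, 5.43 and 5.15 in urothelial arrays, and these overlapped. The part of shortened RNA in the differences between muscle and urothelium was not tested.

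Because both BK subunits were high in the same compartment, the 250 bases before a transcript start of each are shown with those of Ano1, which followed another pattern. The windows of Kcnma1 and Ano1 lie inside the gene spans given here, and that of Kcnmb1 runs past its gene start. All of them therefore precede an internal start. They are RefSeq sequences of GRCm38.p6, at chr14:24004206-24004455 (minus strand) for Kcnma1, chr11:33962763-33963012 (plus strand) for Kcnmb1 and chr7:144738574-144738823 (minus strand) for Ano1. Capitals mark the GC box GGGCGG or its complement CCGCCC, with overlapping matches merged.
Kcnma1: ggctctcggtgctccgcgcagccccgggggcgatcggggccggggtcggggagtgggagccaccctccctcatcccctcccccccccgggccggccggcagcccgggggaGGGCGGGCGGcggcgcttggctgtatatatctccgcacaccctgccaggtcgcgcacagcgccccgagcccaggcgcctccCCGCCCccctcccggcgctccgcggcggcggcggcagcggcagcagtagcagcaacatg
Kcnmb1: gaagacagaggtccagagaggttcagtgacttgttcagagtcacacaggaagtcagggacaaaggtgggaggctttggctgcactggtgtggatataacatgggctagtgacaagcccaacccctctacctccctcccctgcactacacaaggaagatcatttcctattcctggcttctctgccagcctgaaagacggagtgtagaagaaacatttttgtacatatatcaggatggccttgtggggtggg
Ano1: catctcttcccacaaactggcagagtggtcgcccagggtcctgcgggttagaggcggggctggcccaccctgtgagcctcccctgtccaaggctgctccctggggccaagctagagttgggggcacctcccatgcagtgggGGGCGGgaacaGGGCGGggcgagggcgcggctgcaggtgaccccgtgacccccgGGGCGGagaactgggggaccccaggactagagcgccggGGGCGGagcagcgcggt
The windows differ in composition. Kcnma1's is 79.2% G and C with 3 GC boxes, Kcnmb1's is 50.8% with 0, and Ano1's is 72.0% with 4, against a median of 52.4% over all 32851 windows. RefSeq windows were found for 7 of the genes, 10 windows in all, and not for Cacna1h, Atp2a2 or Itpr1. A GC box lay in 4 of the 10 and in 32.7% of all windows. The CArG box, the motif of serum response factor, which drives many smooth muscle genes, was searched on both strands. It lay in 0 of the 10 windows and in 1.47% of all windows. No match says only that these letters are not in this window. The GC box was chosen after the values had been seen.

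**Figure D2:**
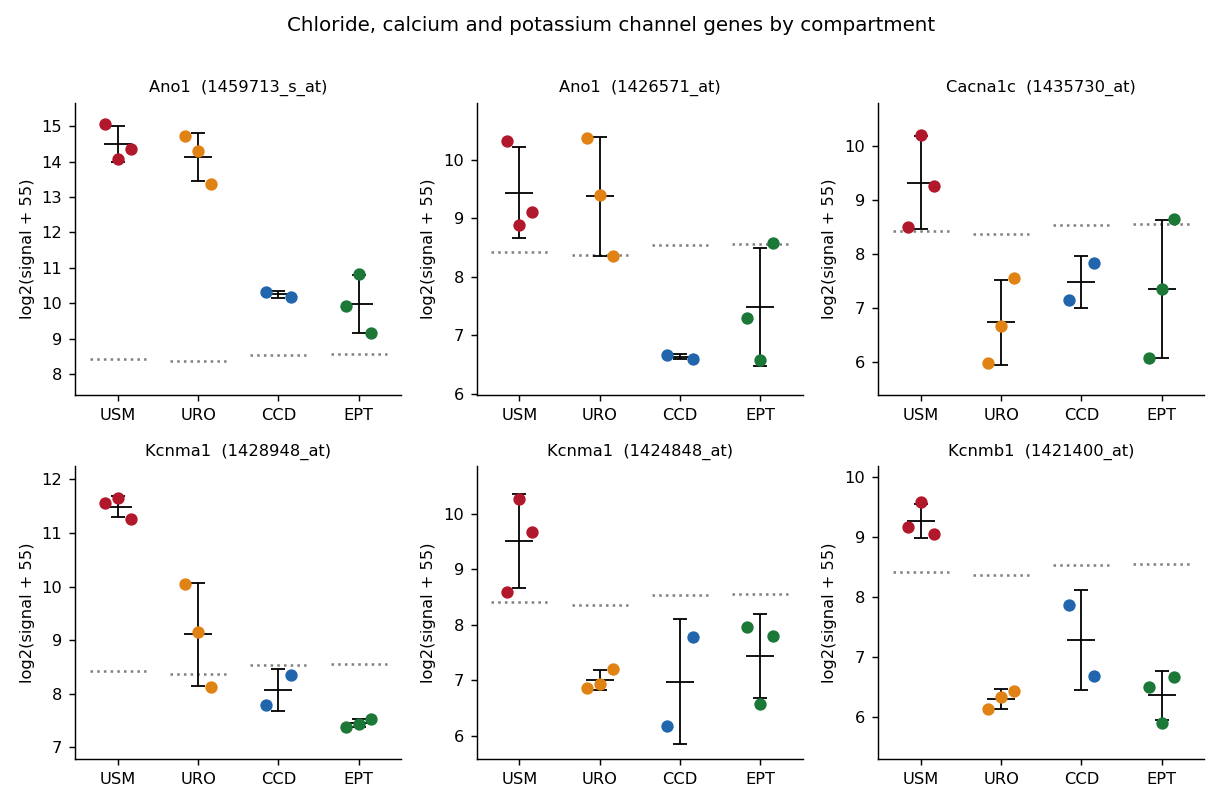
Level in each array, as log2(signal + 55) on the y axis, of 6 probe sets of Ano1, Cacna1c, Kcnma1 and Kcnmb1 in the 4 compartments on the x axis. Points are arrays, bars the mean and SD, and grey dotted lines the mean of the array medians. Kcnma1 and Kcnmb1 stand highest in smooth muscle, and Ano1 stands nearly as high in urothelium.

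Ano1 (chromosome 7, 144588549 to 144752026) encodes a chloride channel opened by calcium, found in smooth muscle, in the interstitial cells of Cajal that pace the gut, and in secretory epithelia. Probe set 1459713_s_at read 15.07, 14.08 and 14.36 in smooth muscle, 14.71, 14.31 and 13.38 in urothelium, 10.32 and 10.19 in collecting duct, and 9.93, 10.83 and 9.17 in proximal tubule. Both ureteral compartments lay above both kidney compartments with no overlap, and they overlapped each other. The s in its name marks probes that match more than 1 transcript, and the annotation used names Ano1 alone.

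Muscle exceeded the mean of the other compartments by 3.04 ± 0.43 on Ano1 1459713_s_at (adjusted p = 0.00061), and urothelium did so by 2.56 ± 0.43 (adjusted p = 0.0137). That urothelial call was the single one among the 21 probe sets, where 0.714% of all probe sets were called higher in urothelium. Muscle minus urothelium was 0.37 ± 0.52 and not called (adjusted p = 0.828). Against collecting duct the difference was 4.25 ± 0.58 for muscle (adjusted p = 0.000972) and 3.88 ± 0.58 for urothelium (adjusted p = 0.0355). Against proximal tubule it was 4.52 ± 0.52 for muscle (adjusted p = 1e-04) and 4.16 ± 0.52 for urothelium (adjusted p = 0.000475). Proximal tubule and collecting duct differed by -0.28 ± 0.58 (adjusted p = 0.908). The level therefore had a single called step, between the ureter and the kidney compartments.

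Ano1 was also the 1 probe set called lower in collecting duct than in the mean of the others (-2.62 ± 0.49, adjusted p = 0.0303), where 0.179% of all probe sets were called lower. That call was lost without collecting duct replicate 1 (adjusted p = 0.333) or 2 (adjusted p = 0.231), and with the pseudocount of 12 (adjusted p = 0.0684). The urothelial call was lost without urothelium replicate 1 (adjusted p = 0.0882) or 2 (adjusted p = 0.0889). With label batch as a fixed block, Ano1 stayed called in muscle at 2.78 ± 0.55 (adjusted p = 0.0214). In that fit it was not called in urothelium (2.19 ± 0.77, adjusted p = 0.609) or collecting duct (-2.30 ± 0.67, adjusted p = 0.436). The block also ended the calls of muscle over collecting duct (adjusted p = 0.0731), urothelium over collecting duct (0.824) and urothelium over proximal tubule (0.298), and kept muscle over proximal tubule (0.0355). Urothelium over collecting duct was further lost without collecting duct replicate 1 or 2, urothelium replicate 1 or 2 or proximal tubule replicate 1 (adjusted p from 0.056 to 0.259).

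The second probe set of Ano1, 1426571_at, was dimmer. It read 10.32, 8.89 and 9.11 in smooth muscle, 10.37, 9.39 and 8.36 in urothelium, 6.66 and 6.60 in collecting duct, and 7.29, 6.58 and 8.58 in proximal tubule. The order of the means was again both ureteral tissues over both kidney tissues, with proximal tubule replicate 3 reaching the urothelial range. Muscle over the mean of the others was 1.61 ± 0.52 and not called (adjusted p = 0.0749). It would be called without urothelium replicate 1 (adjusted p = 0.0436) or proximal tubule replicate 3 (adjusted p = 0.0398). Over the 11 arrays, both probe sets of Ano1 correlated at r = 0.82.

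Smooth muscle markers were present in the urothelial arrays at a lower level. Averaged over the 10 markers, they stood at 13.08 to 13.24 in muscle arrays, 9.12 to 10.93 in urothelial arrays, 8.26 in both collecting duct arrays and 7.75 to 8.80 in proximal tubule arrays. Acta2 read 17.63, 17.07 and 16.94 in muscle, against 15.56, 14.82 and 13.09 in urothelium. Myh11 read 14.55, 15.30 and 14.74 in muscle, against 12.01, 10.59 and 7.44 in urothelium. Among urothelial arrays, replicate 1 was highest and replicate 3 lowest for Acta2, Myh11, both Ano1 probe sets and Kcnma1 1428948_at. Replicate 3 was instead the highest for Kcnma1 1424848_at, both Kcnmb1 probe sets and Cacna1c 1435730_at, and replicate 1 the lowest for the marker Lmod1. For Kcnma1 1424848_at, Kcnmb1 1421400_at and Cacna1c 1435730_at every urothelial array lay below its array median, so their order rests on dim signals. On the linear scale, mean urothelial signal was 79.6% of the mean muscle signal for Ano1 1459713_s_at and 101% for 1426571_at. For the markers that share ran from 4.26% (Cnn1) to 19.9% (Lmod1), and Smtn stood at 68.1%. That share was 9.8%, 27.8%, 20.4% and 76.4% for Kcnma1 1424848_at, 1425987_a_at, 1428948_at and 1440728_at. For Kcnmb1 it was 4.22% (1421400_at) and 28.2% (1421401_at), and for Cacna1c 42.1% (1421297_a_at) and 9.35% (1435730_at). The share of Kcnmb1 1421400_at rests on dim urothelial signals of 14.77, 25.74 and 31.58, below the constant added before taking logs. The part that muscle RNA had in the urothelial level of any of these genes was not tested.

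**Figure D3:**
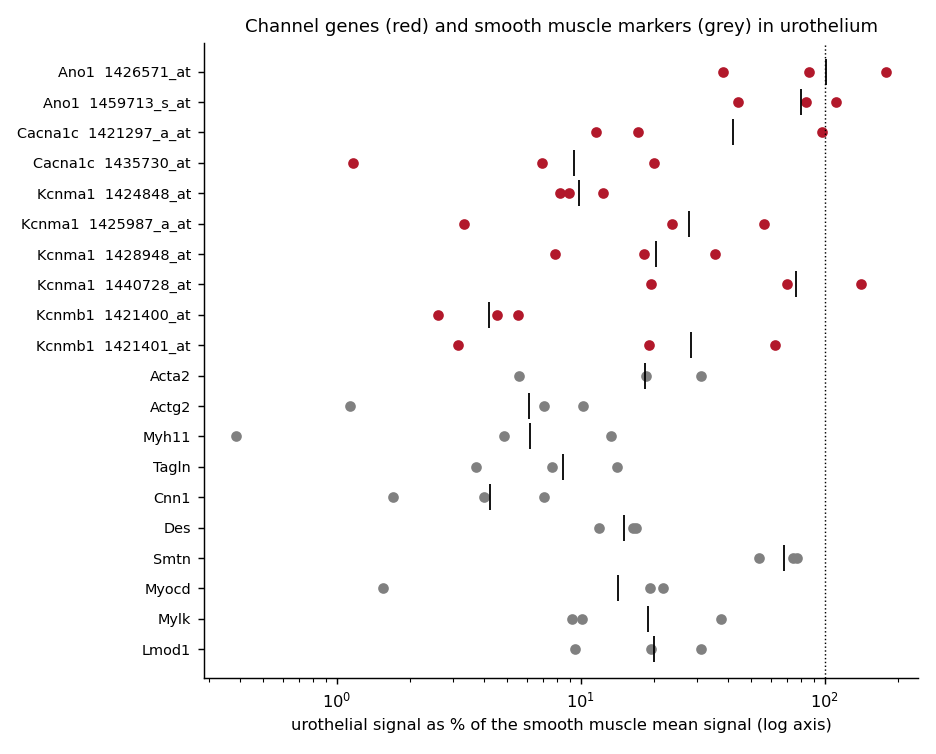
Signal of each urothelial array as a percent of the mean smooth muscle signal of the same probe set (x axis, log scale), for the tested probe sets of Ano1, Cacna1c, Kcnma1 and Kcnmb1 (red points) and for 10 smooth muscle markers (grey points). Black ticks mark the urothelial mean. Ano1 stands at 79.6% and 101%, and the markers other than Smtn at 4.26% to 19.9%. The means of the other red probe sets run from 4.22% (Kcnmb1 1421400_at) to 76.4% (Kcnma1 1440728_at).

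The voltage-gated calcium channels gave a mixed picture. Cacna1c (chromosome 6, 118587240 to 119197384) encodes Cav1.2, the L-type pore through which most calcium enters smooth muscle. Probe set 1435730_at read 8.50, 10.21 and 9.27 in smooth muscle, 5.97, 6.66 and 7.55 in urothelium, 7.13 and 7.82 in collecting duct, and 6.07, 7.34 and 8.64 in proximal tubule. Only the muscle arrays lay above their array medians, and proximal tubule replicate 3 overlapped them. Muscle exceeded the mean of the others by 2.14 ± 0.55 (adjusted p = 0.0272) and urothelium by 2.60 ± 0.66 (adjusted p = 0.043). The call of Cacna1c against the others was lost without muscle replicate 2 (adjusted p = 0.136) or 3 (adjusted p = 0.0856) or collecting duct replicate 1 (adjusted p = 0.0644), and with the pseudocount of 12 (adjusted p = 0.0675). This probe set passed the filter through its muscle arrays alone, and with no filter the call against urothelium was lost (adjusted p = 0.0614), as it was with the pseudocount of 12 (0.089). Its call against urothelium ended without muscle replicate 2 or 3, urothelium replicate 1 or 2, collecting duct replicate 1 or 2 or proximal tubule replicate 2, with adjusted p from 0.0564 to 0.158. The label batch block ended that call too (adjusted p = 0.0654). With that block Cacna1c stood at 3.18 ± 0.54 (adjusted p = 0.0112) in muscle over the mean of the others.

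The other Cacna1c probe set, 1421297_a_at, read 9.66, 9.85 and 9.55 in smooth muscle, 7.17, 9.66 and 7.56 in urothelium, 8.82 and 8.56 in collecting duct, and 8.64, 8.58 and 8.36 in proximal tubule. Urothelium replicate 2 lay among the muscle arrays, and all others below them. It was not called (1.24 ± 0.47, adjusted p = 0.127), and without urothelium replicate 2 it was (1.5, adjusted p = 0.00994).

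Cacna1d (chromosome 14, 30039941 to 30491156) encodes Cav1.3, an L-type pore that opens at more negative voltages and takes part in the heart's pacemaking. Its tested probe set, 1427974_s_at, read 11.09, 11.49 and 11.28 in smooth muscle, 9.98, 8.40 and 10.88 in urothelium, 11.57 and 10.95 in collecting duct, and 9.32, 10.40 and 9.92 in proximal tubule. Muscle and collecting duct overlapped and lay above every array of the other compartments, and no comparison was called. Muscle minus the mean of the others was 0.99 ± 0.48 (adjusted p = 0.249), and muscle minus collecting duct 0.03 ± 0.64 (adjusted p = 0.992). The second probe set, 1428051_a_at, lay above the median of 0 arrays and correlated with the first at r = -0.32 over the 11 arrays.

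Cacna1h (chromosome 17, 25374285 to 25436334) encodes Cav3.2, a T-type pore that opens near the resting potential. Probe set 1422710_a_at read 9.22, 9.52 and 10.61 in proximal tubule, 8.63, 9.08 and 8.74 in smooth muscle, 7.89, 8.24 and 8.40 in urothelium, and 8.40 and 7.42 in collecting duct. All proximal tubule arrays lay above all others. Proximal tubule exceeded the mean of the others by 1.48 ± 0.39 (adjusted p = 0.0282), while muscle differed from its own mean of the others by 0.19 ± 0.39 (adjusted p = 0.833). The proximal tubule call was lost without proximal tubule replicate 2 (adjusted p = 0.0738) or 3 (adjusted p = 0.151) or collecting duct replicate 2 (adjusted p = 0.0631). The second probe set, 1427607_at, was above the array median in 3 arrays and was not called (0.91 ± 0.55 in proximal tubule, adjusted p = 0.338).

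Early proximal tubule had 3 probe sets called higher, 1 each of Ryr2, Atp2a2 and Cacna1h, and 3 called lower, 1 each of Ano1, Kcnma1 and Kcnmb1. Over all probe sets, 5.98% were called higher there and 3.83% lower. Ano1 1459713_s_at was lower by -2.98 ± 0.43 (adjusted p = 0.00077) and Kcnma1 1428948_at by -2.11 ± 0.40 (adjusted p = 0.00473). Kcnmb1 1421400_at was lower by -1.26 ± 0.36 (adjusted p = 0.0433), a call that ended on leaving out any array other than collecting duct replicate 2 (adjusted p from 0.0539 to 0.204). All of these 6 calls were lost with label batch as a fixed block. In that fit the adjusted p was 0.287 for Ryr2, 0.216 for Atp2a2, 0.466 for Cacna1h, 0.103 for Ano1, 0.092 for Kcnma1 and 0.406 for Kcnmb1. The mean of the others includes muscle, where the 3 lower probe sets averaged highest. None of the 3 was called between proximal tubule and collecting duct (adjusted p = 0.908 for Ano1, 0.709 for Kcnma1 and 0.442 for Kcnmb1). Between urothelium and proximal tubule Ano1 was called, and Kcnma1 (adjusted p = 0.0552) and Kcnmb1 (0.956) were not.

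Ryr2 (chromosome 13, 11553099 to 12106945) encodes the ryanodine receptor of the heart, which releases calcium from the store. Probe set 1450123_at read 9.79, 11.57 and 9.95 in proximal tubule, 7.09, 8.11 and 8.99 in smooth muscle, 7.75, 9.15 and 6.84 in urothelium, and 7.71 and 7.26 in collecting duct. All 3 proximal tubule arrays lay above the rest, and muscle sat within the range of the other compartments. Proximal tubule exceeded the mean of the others by 2.62 ± 0.56 (adjusted p = 0.0103), a call lost without proximal tubule replicate 2 (2.05, adjusted p = 0.0813). Within label batches, proximal tubule exceeded collecting duct by 3.50 in label batch 3 and 2.08 in label batch 4.

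The second Ryr2 probe set, 1421126_at, read 9.36, 8.58 and 7.73 in proximal tubule, 7.68, 7.97 and 7.94 in smooth muscle, 6.99, 6.52 and 6.27 in urothelium, and 8.18 and 7.17 in collecting duct. Urothelium was lowest with no overlap, and proximal tubule overlapped muscle and collecting duct. It was not called in proximal tubule against the mean of the others (1.18 ± 0.40, adjusted p = 0.0839). Both Ryr2 probe sets correlated at r = 0.56 over the 11 arrays, which share compartment and label batch.

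Atp2a2 (chromosome 5, 122453513 to 122502225) encodes SERCA2, the pump that returns calcium to the store in heart, smooth muscle and most other cells. Of its 6 probe sets, 5 lay above the median of all 11 arrays. The brightest, 1427250_at, read 16.11, 16.11 and 15.98 in smooth muscle, 15.70, 15.61 and 15.42 in urothelium, 15.97 and 15.73 in collecting duct, and 16.51, 16.26 and 16.48 in proximal tubule. The arrays spanned little more than 1 on the log2 scale, with proximal tubule highest and urothelium lowest. Muscle minus the mean of the others was 0.12 ± 0.30 (adjusted p = 0.874). None of the 6 was called in muscle, where their log2 fold changes ran from -0.67 to 0.34. Probe set 1416551_at read 13.91, 14.75 and 14.22 in muscle, against 13.46, 13.16 and 13.67 in urothelium, 13.67 and 13.98 in collecting duct and 14.84, 15.07 and 14.37 in proximal tubule. Muscle overlapped both kidney compartments on it. The levels of 1427251_at (8.92 to 9.80) and 1452363_a_at (10.51 to 12.25) overlapped among compartments, and 1443551_at was above the array median in 3 arrays.

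Probe set 1437797_at of Atp2a2 was the single one called in any compartment against the mean of the others. It read 12.67, 12.54 and 13.29 in proximal tubule, 11.34, 11.17 and 9.88 in smooth muscle, 10.76, 10.15 and 9.75 in urothelium, and 11.54 and 11.15 in collecting duct. Proximal tubule exceeded all other arrays and was called over their mean (2.05 ± 0.40, adjusted p = 0.00603). The differences within label batches were 1.77 over collecting duct in label batch 3 and 1.13 in label batch 4. It correlated at r = 0.87 with 1427250_at and at r = -0.10 with 1427251_at over the 11 arrays. Of the Atp2a2 probe sets, 1 was thus called and 5 were not. In proximal tubule against the mean of the others, the uncalled ones stood at 0.91 (1416551_at), 0.58 (1427250_at), 0.52 (1452363_a_at), 0.51 (1443551_at) and -0.04 (1427251_at).

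Pln (chromosome 10, 53337686 to 53345999) encodes phospholamban, the small membrane protein that holds SERCA2 back. Its 3 probe sets each lay above the array median in 1 array and were not tested. Probe set 1460332_at read 7.45, 8.04 and 8.14 in smooth muscle, 6.23, 8.55 and 8.09 in urothelium, 6.91 and 8.2 in collecting duct, and 7.79, 7.44 and 8.24 in proximal tubule. All compartments overlapped. Probe set 1423359_at ran from 6.70 to 8.33 and 1450952_at from 6.48 to 8.83 over the 11 arrays. With no filter, no Pln probe set was called in any comparison.

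**Figure D4:**
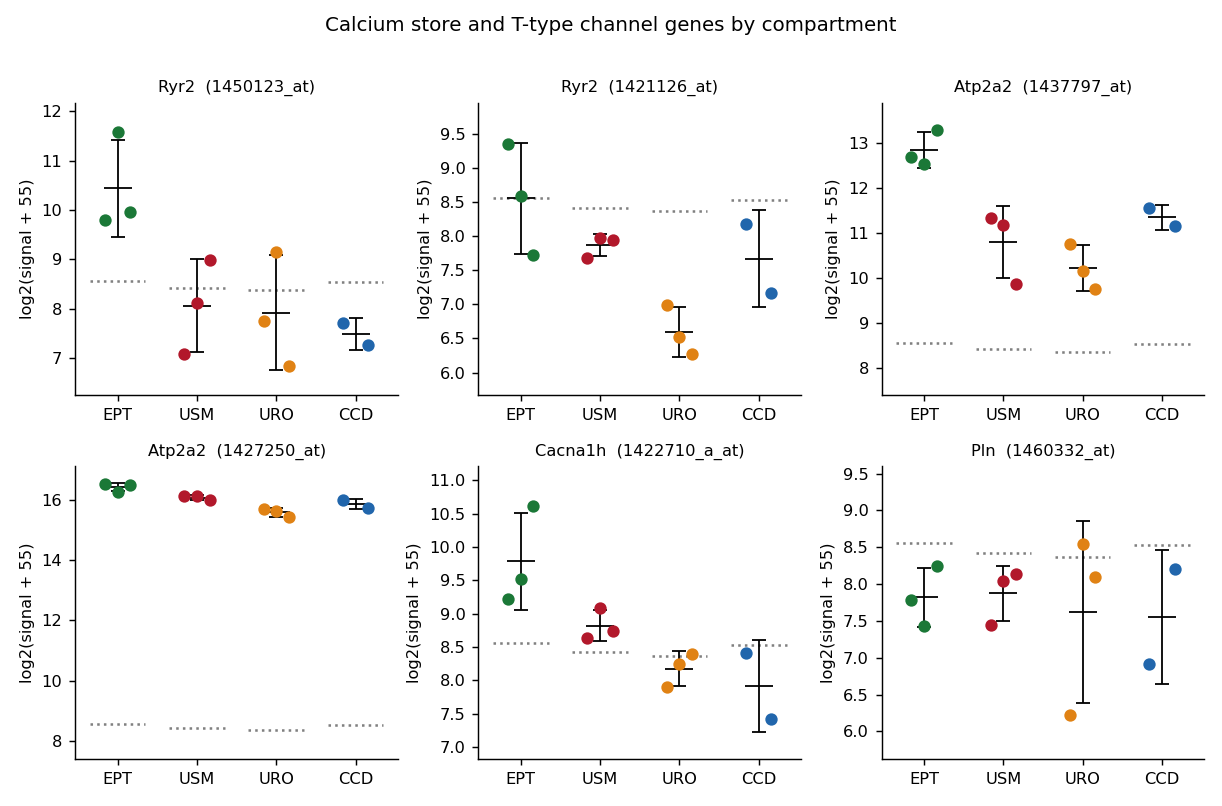
Level in each array, as log2(signal + 55) on the y axis, of 6 probe sets of Ryr2, Atp2a2, Cacna1h and Pln in the 4 compartments on the x axis. Points are arrays, bars the mean and SD, and grey dotted lines the mean of the array medians. Ryr2 1450123_at, Atp2a2 1437797_at and Cacna1h stand highest in proximal tubule, Atp2a2 1427250_at is bright in every array, and Pln lies near or below the medians.

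Other genes of these pathways were read from 5 lists, 1 probe set per gene. Of 110 listed genes, 71 were tested. In muscle against the mean of the others, 21 were called higher and 1 lower, where 4.75% of all genes were called higher and 7.47% lower. Among the genes called higher, Cacnb2, Kcnn2 and Pde3a had passed the filter through their muscle arrays alone. Kcnk3 lay above the median in its muscle arrays and 1 urothelial array, so it too needed muscle to pass. The counts and medians of these lists therefore also favour muscle. With label batch as a fixed block, 10 were called higher and 1 lower, where 502 and 643 of all 29565 probe sets were. Those 10 were Jph2, Cacna2d3, Kcnk2, Kcnk3 and 6 calcium to contraction genes. Stroma markers were higher in the same arrays, as given above, and their part in these calls was not tested.

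Voltage-gated calcium channels consist of a pore and auxiliary subunits, which carry the pore to the membrane and tune its opening. Of 9 tested genes of both kinds, 3 were called higher in muscle and 0 lower, with a median log2 fold change of 0.59. All 3 encode auxiliary subunits. They were Cacna2d3 (2.88 ± 0.54, adjusted p = 0.00436), Cacnb2 (2.37 ± 0.48, adjusted p = 0.00671) and Cacna2d1 (2.06 ± 0.46, adjusted p = 0.0122). Cacna2d3 read 9.93, 11.08 and 11.43 in muscle, against 8.13, 7.88 and 9.09 in urothelium, 6.26 and 8.23 in collecting duct and 8.97, 7.06 and 8.53 in proximal tubule. None of its muscle arrays overlapped with the others. The pore subunits tested, Cacna1a and Cacna1g, were not called.

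Among 23 tested genes of calcium stores, pumps and entry, 5 were called higher in muscle and 0 lower, and the median was 0.00. Jph2, which ties the store to the cell membrane, was higher by 2.91 ± 0.50 (adjusted p = 0.00221). Its muscle arrays at 11.64, 11.84 and 11.43 lay above all others, the highest being 9.77 in collecting duct. Slc8a1, the sodium-calcium exchanger, was higher by 1.47 ± 0.36 (adjusted p = 0.0214) and Atp2b1, a calcium pump of the cell membrane, by 1.44 ± 0.41 (adjusted p = 0.0418). For Slc8a1 the collecting duct arrays, at 15.73 and 15.38, lay above the muscle arrays, at 14.19, 14.73 and 14.28. Ryr3, another ryanodine receptor, was higher by 2.38 ± 0.68 (adjusted p = 0.0429), with muscle at 11.06, 11.56 and 11.30 and proximal tubule at 10.43, 12.07 and 9.90. Muscle and proximal tubule therefore overlapped for Ryr3. The fifth, Asph (1.49, adjusted p = 0.0461), is named because its values had been seen.

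Of 15 other potassium and chloride channel genes tested, 5 were called higher in muscle and 1 lower, with a median of 0.85. The background potassium channels Kcnk3 (3.64 ± 0.48, adjusted p = 0.000373) and Kcnk2 (2.59 ± 0.40, adjusted p = 0.00105) had the largest moderated t. Kcnk3 read 9.99, 10.20 and 11.55 in muscle, against 6.57, 8.81 and 7.59 in urothelium. Kcnk2 read 11.70, 12.01 and 12.23 in muscle, against 11.67, 11.80 and 10.32 in urothelium, and both ureteral tissues overlapped as they did for Ano1. Kcnn2, a small-conductance channel opened by calcium, was higher by 2.20 ± 0.42 (adjusted p = 0.00427). Clcn3, a chloride-proton exchanger of intracellular membranes, was lower by -2.85 ± 0.49 (adjusted p = 0.00222). The remaining calls, Kcnh2 (1.62, adjusted p = 0.00859) and the BK subunit Kcnmb4 (1.66, adjusted p = 0.021), were named after their values had been seen.

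No gene of the pacemaker and electrical coupling list was called in muscle, of 7 tested by limma. Kit, the receptor that marks interstitial cells of Cajal, read 8.04, 9.12 and 8.54 in muscle, against 8.67, 8.11 and 9.66 in urothelium, 8.39 and 9.39 in collecting duct and 8.72, 8.52 and 8.93 in proximal tubule. Its compartments overlapped throughout (-0.24 ± 0.41, adjusted p = 0.802). Gjc1, a gap junction subunit, read 14.62, 14.42 and 14.18 in muscle, against 13.18, 12.34 and 13.55 in urothelium. Its muscle arrays lay above all others, and it missed the threshold (1.28 ± 0.39, adjusted p = 0.0561). Both genes are named because their values had been seen.

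The steps from calcium to contraction had the largest share of calls, 8 of 17 tested higher and 0 lower, with a median of 1.35. Mylk, the kinase that calmodulin switches on to start contraction, was higher by 3.71 ± 0.52 (adjusted p = 0.000574). It is also 1 of the 10 smooth muscle markers. Pde5a, which breaks down cyclic GMP, was higher by 3.19 ± 0.42 (adjusted p = 0.000368). Prkg1, the kinase that cyclic GMP switches on, was higher by 2.79 ± 0.40 (adjusted p = 0.000667). Mrvi1, a substrate of that kinase that restrains calcium release, was higher by 2.79 ± 0.38 (adjusted p = 0.00047). Genes that start contraction and genes that relax muscle were thus both among the calls.

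**Figure D5:**
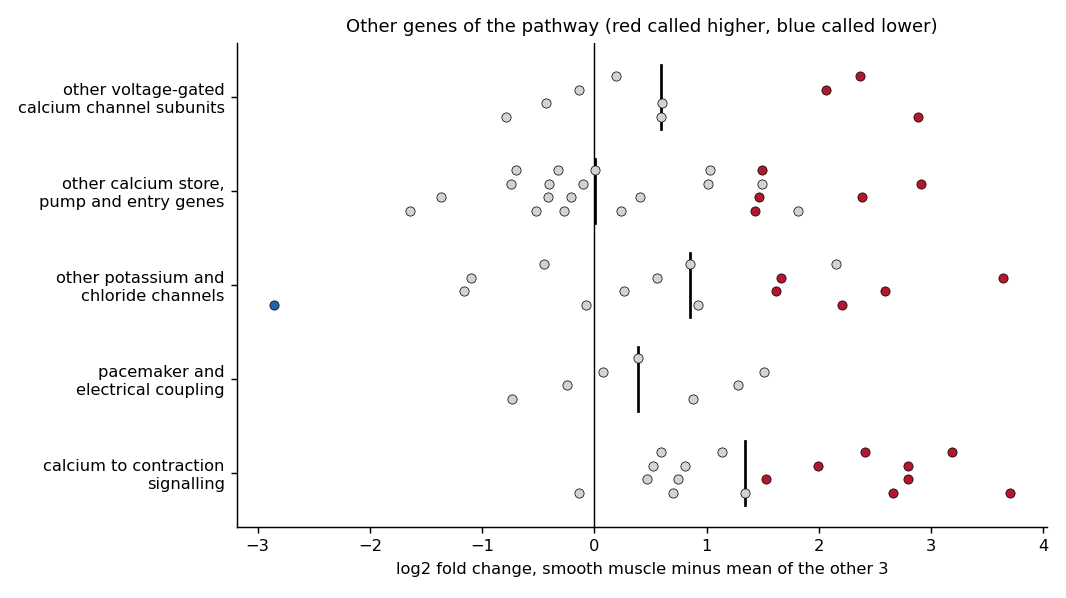
Log2 fold change of ureteral smooth muscle minus the mean of the other 3 compartments (x axis) for the 71 tested genes of 5 pathway lists (y axis). Points are genes, red called higher, blue called lower and grey not called, and black bars are list medians.

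For each gene, the 3 most similar genes over the 11 arrays were found by Pearson correlation of its brightest probe set with 12852 genes, as a description with no test. Arrays of a compartment share their tissue, so these values mostly follow the compartment means. For Kcnma1 they were Actg2 (r = 0.98), the smooth muscle actin of gut and bladder, the cation channel Trpv2 (0.98) and Tnnt2 (0.98). For Kcnmb1 they were Dact1 (0.96), Ilk (0.96) and the sphingosine phosphate receptor S1pr3 (0.95). For Ano1 they were Scarb2 (0.97), Anp32b (0.96) and Ppa1 (0.96), each of which was close to level between muscle and urothelium. Scarb2, for example, averaged 13.66 in muscle, 13.67 in urothelium, 12.40 in collecting duct and 12.06 in proximal tubule.

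The other genes gave these neighbours. For Cacna1c 1421297_a_at they were Oas2 (0.96), Rnf113a2 (0.93) and Prdm6 (0.90), and for Cacna1d they were Glmn (0.92), Ltbp1 (0.92) and Slit2 (0.89). For Ryr2 they were Cfp (0.95), Ttc41 (0.94) and Aifm3 (0.93), and for Cacna1h they were Btd (0.96), Bag2 (0.94) and Slx4 (0.93). Each of these 6 averaged highest in proximal tubule. For Atp2a2 they were Chrna3 (0.95), Pnisr (0.93) and Slc26a6 (0.93). For Pln, whose arrays did not separate by compartment, they were Il6ra (0.90), Nsa2 (0.86) and Spen (0.85).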

How the data were processed

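For each of 11 Affymetrix arrays the authors deposited 1 intensity per probe set (45101), on a linear scale, which GCOS produced per the submitters' processing notes. No source used here gives its version. Each array had the same mean, 1500, once 2% of probe sets were trimmed at each end, so the scaling was kept. Groups came from the labels. Replicate numbers follow accession order and pair nothing. Probe sets were named by GEO's platform annotation, in which 34958 have 1 gene symbol, 932 several and 9211 none. Gene positions and sequences are from RefSeq (GRCm38.p6).

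The log2 scale was log2(signal + 55), where 55 is the 20th percentile of all signals, rounded. A filter kept 29565 probe sets, without the 64 controls. One model in limma 3.58.1 under R 4.3.3, with a mean per compartment over the 11 arrays (7 residual and 6.1 prior degrees of freedom) gave every comparison, and each p was adjusted by Benjamini-Hochberg over all probe sets tested. The code was tested on simulated data. Values after ± are SE for differences and SD for levels. Every member probe set was named, with up to 4 called genes of each pathway list by moderated t and 3 similar genes per member. The members, lists and motif were chosen with earlier results of these data known, so none of their patterns is independent support. The number of arrays limits the precision. Alternatives were quantile normalization, pseudocounts of 12 and 190, leaving out the filter, a stricter filter (75th percentile), 1 probe set per gene, leaving out probe sets whose names carry x, s or a, trended robust eBayes, label batch as a fixed or random block, and each array left out. Plots used Python 3.11.15, pandas 2.3.3 and matplotlib 3.10.9.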

Additional observations from a re-analysis of the deposited data

How the results depend on the processing

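Among the muscle calls against the mean of the other compartments, Ano1 1459713_s_at, Kcnma1 1428948_at and 1424848_at and Kcnmb1 1421400_at stayed called in every alternative that kept them. The 7 probe sets of these genes called there became 2 with the filter at the 75th percentile and 3 with 1 probe set per gene, both of which test fewer probe sets. Leaving out an array gave 5 to 8. Over all probe sets, 1169 were higher and 1648 lower in muscle, 502 and 643 with label batch as a fixed block, and 669 to 1178 and 1034 to 1624 with an array left out. In urothelium the 1 probe set of these genes called higher became 0 without x, s and a types, 0 with the block and 0 to 1 with an array left out. The 211 probe sets higher in urothelium became 324 with the high pseudocount, 140 without those types, 2 with the block and 33 to 253 with an array left out. The 99 lower became 179 with the high pseudocount, 165 with trended robust eBayes, 0 with the block and 11 to 141 with an array left out. In collecting duct the 1 of them called lower became 0 with the low pseudocount, without x, s and a types and with the block, and 0 to 1 with an array left out. The 152 higher became 60 with the low and 284 with the high pseudocount, 0 with the block and 0 to 172 with an array left out. The 53 lower became 31 with the low and 92 with the high pseudocount, 97 with the 75th percentile filter, 85 with 1 probe set per gene, 27 without x, s and a types, 0 with the block and 0 to 66 with an array left out. In proximal tubule the 3 of them called higher became 1 with the 75th percentile filter, 0 with the block and 1 to 3 with an array left out. The 3 called lower became 1 without x, s and a types, 0 with the block and 2 to 3 with an array left out. There, 1768 were higher over all probe sets, 249 with the block and 874 to 1832 with an array left out, and 1133 lower, 722 without those types, 109 with the block and 517 to 1202 with an array left out. Between muscle and urothelium, the 4 of them called higher became 2 with the low pseudocount, 1 with the 75th percentile filter, 1 with 1 probe set per gene, 1 with the block and 2 to 5 with an array left out. Over all probe sets 530 were higher there, 264 with the block and 248 to 515 with an array left out, and 814 lower, 527 to 766 with an array left out. The causes of these shifts were not tested.

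Changes of sign in muscle against the mean of the others came only in uncalled results. With the block, Ryr2 1421126_at stood at -0.13, and with quantile normalization Atp2a2 1427250_at stood at -0.14. With an array left out, Atp2a2 1427251_at ran from -0.056 to 0.15 (negative also without muscle replicate 2, at -0.01, and urothelium replicate 1, at -0.03). Kcnma1 1440728_at ran from -0.22 (without muscle replicate 2) to 1.4. Atp2a2 1443551_at ran from -0.37 (without muscle replicate 2) to 0.70, with -0.01 without collecting duct replicate 1. No paired analysis was possible because the replicate numbers follow accession order and pair no samples. Label batches, which group some arrays of different compartments, were fitted as a block instead. Groups of 2 or 3 arrays per compartment, and signals near or below the array median for Pln, for Kcnmb1 outside muscle and for several other probe sets, limit what could be called.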

Other observations

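A pair of genes of the calcium store, pump and entry list stood out in the kidney compartments. Slc8a1, the sodium-calcium exchanger that also serves calcium reabsorption in the distal nephron, read 15.73 and 15.38 in collecting duct, 10.84, 10.99 and 10.40 in proximal tubule, 14.19, 14.73 and 14.28 in smooth muscle and 11.81, 12.53 and 13.17 in urothelium. Collecting duct lay above all other arrays and proximal tubule below them. Slc8a1 was called higher in collecting duct (3.0 ± 0.42, adjusted p = 0.0101) and lower in proximal tubule (-3.41 ± 0.36, adjusted p = 0.000105) against the mean of the other compartments. With label batch as a fixed block the adjusted p was 0.212 in collecting duct and 0.0205 in proximal tubule.

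Trpc1, a cation channel subunit, averaged 14.06 ± 0.51 in proximal tubule (SD, n = 3), against 10.19 ± 1.10 in smooth muscle (n = 3), 8.60 ± 1.62 in urothelium (n = 3) and 10.14 ± 0.82 in collecting duct (n = 2). It was called higher in proximal tubule by 4.41 ± 0.63 (adjusted p = 0.000721), and by 4.96 with label batch as a fixed block (adjusted p = 0.0447). Both genes were chosen after their values had been seen.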
